A study of Mus musculus with 10 samples.

Results

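The piRNA pathway protects the germ line from transposons, and the promoters of 10 of its genes (Ddx4, Mael, Asz1, Tdrd1, Tdrd9, Piwil2, Piwil4, Mov10l1, Tex19.1 and Pld6) were examined here in mouse prospermatogonia, the germ cells of the fetal testis. The members were the CpG cytosines of the deposited table within 1 kb either side of any transcription start of these genes in the mm10 genome (GENCODE M21 annotation). In all, 128 of the 1348062 CpG cytosines in the table met this rule, and they lay at 8 of the 10 genes. At Tex19.1 and Pld6 the table held no CpG, although the reference sequence has 52 CpGs in the window of Tex19.1 and 75 in that of Pld6. DNA methylation had been measured by reduced representation bisulfite sequencing (RRBS), in which bisulfite leaves methylated cytosine as C while unmethylated cytosine is read as T. The level of a CpG was the share of its reads that carried C, and the level of a promoter was the mean over its CpGs. Distances below are to the nearest annotated start of the gene. There were 5 control pools and 5 arsenic pools of the C3H/HeN strain, collected in late gestation from fetuses of dams on tap water or on tap water with sodium arsenite during gestation. Each pool combined cells from the testes of many fetuses, enriched for germ cells by magnetic separation for the surface antigen Thy1. The pool was therefore the replicate, and no single animal could be followed.

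The pools held 44207245 to 66570870 CpG calls each, with a median coverage of 25 to 40 reads per CpG, and the 128 piRNA pathway CpGs were covered by 10 to 127 reads. Arsenic pool 1 stood apart, with a mean level over all CpGs of 42.1%, the lowest of the 10 pools, which reached 47.3% in arsenic pool 5. Promoters of maternally imprinted genes, which are unmethylated in male germ cells after erasure, had a median level of 34.8% over 9 genes, from 7.35% at Inpp5f to 75.8% at Mest. Their mean per pool ran from 24.9% in arsenic pool 1 to 44.8% in arsenic pool 5. These levels were taken within 1 kb of any start and not restricted to the imprinted regions, so they may include CpGs outside them. The paternally methylated region 2 to 4 kb upstream of H19 (4 CpGs) stood at 36.8% in arsenic pool 1 and at 62.8 to 81.5% in the other pools. Promoters of genes that mark other testis cells had levels of 0.848 to 4.26% for the 3 Sertoli genes with a CpG, medians of 46.5% for 3 Leydig, 34.5% for 2 endothelial and 50.9% for 2 blood genes, and expression was not measured. Of these marker genes, Cyp17a1 (Leydig) and Cdh5 (endothelial, 2 CpGs) are named after their values were seen. Cyp17a1 was at 51.8% ± 6.25 in control and 41.2% ± 5.86 in arsenic pools, and Cdh5 at 72.4% ± 11.5 and 57.7% ± 8.76 (SD, n = 5), with unadjusted p of 0.0238 and 0.0476 in the exact permutation test. By that test 6.21% of all promoters had an unadjusted p below 0.05. In the Leydig and endothelial lists, the other genes with a CpG differed by -1.21 (Cyp11a1), 0.183 (Insl3) and 0.532 points (Kdr), arsenic minus control. Sox9, Dhh and Wt1 (Sertoli) differed by -0.394, -0.595 and 0.540 points, and Adgre1 and Spi1 (blood) by -1.30 and 0.361 points. Thy1, the antigen used for isolation, was at 32.3% ± 2.97 and 27.4% ± 3.16 (SD, n = 5, exact permutation test, unadjusted p = 0.0397). After adjustment over all promoters Cyp17a1, Cdh5 and Thy1 did not pass (smallest adjusted p = 0.740 in the same exact test). The part that other cells had in the levels below was not tested. In these pooled cells, a level between 0 and 100% cannot be told apart as a mixture of methylated and unmethylated cells or as mixed methylation within each cell.

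As background, piRNAs are small RNAs carried by PIWI proteins, which use them to find transposon transcripts by base pairing. In the fetal testis PIWIL2 cuts such transcripts in the cytoplasm, and PIWIL4 enters the nucleus and directs DNA methylation to transposon copies while the male germ line rebuilds its methylation. Helicases, Tudor domain proteins that dock onto PIWI proteins, and mitochondrial anchors make and load the piRNAs. Many of these genes are silent in body cells, where CpGs at their starts are methylated, and their promoters belong to a class in which methylation itself is known to take part in keeping the gene off.

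The stretches below, none of them in an untranslated exon, show where the measured CpGs sat at the 6 genes with data near their 5′ end, and for Mov10l1 also at an internal exon of a very different level. They were read from the RefSeq copy of the GRCm38 assembly (mm10), 5′ to 3′ on the strand given, and the C and G of every CpG measured on at least 1 strand are in capitals. Most begin or end at a CCGG, the letters between which the measured fragments lay.
Ddx4, upstream of the start, chr13:112652476-112652564, minus strand: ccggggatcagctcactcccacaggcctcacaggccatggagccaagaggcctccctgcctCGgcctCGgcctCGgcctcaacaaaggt
Mael, first coding exon and intron, chr1:166238417-166238585, minus strand: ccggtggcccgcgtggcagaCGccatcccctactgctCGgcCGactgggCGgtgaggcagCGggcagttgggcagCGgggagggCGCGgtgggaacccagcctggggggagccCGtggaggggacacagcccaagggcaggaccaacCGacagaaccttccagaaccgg
Asz1, first coding exon, chr6:18108941-18109036, minus strand: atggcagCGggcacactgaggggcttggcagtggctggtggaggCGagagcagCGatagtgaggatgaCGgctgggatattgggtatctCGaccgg
Piwil2, upstream of the start, chr14:70429419-70429560, minus strand: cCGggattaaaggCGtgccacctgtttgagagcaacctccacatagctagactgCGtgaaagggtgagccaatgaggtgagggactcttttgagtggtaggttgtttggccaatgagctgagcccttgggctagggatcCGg
Tdrd1, upstream of the start, chr19:56825694-56825813, plus strand: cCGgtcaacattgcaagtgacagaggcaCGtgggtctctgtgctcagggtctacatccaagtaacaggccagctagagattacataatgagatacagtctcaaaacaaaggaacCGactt
Mov10l1, first intron, chr15:88983439-88983665, plus strand: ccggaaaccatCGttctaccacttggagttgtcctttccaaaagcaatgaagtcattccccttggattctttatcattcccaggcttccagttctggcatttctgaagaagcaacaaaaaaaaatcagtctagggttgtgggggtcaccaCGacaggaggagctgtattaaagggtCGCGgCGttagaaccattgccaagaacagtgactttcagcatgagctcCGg
Mov10l1, internal coding exon, chr15:89021179-89021283, plus strand: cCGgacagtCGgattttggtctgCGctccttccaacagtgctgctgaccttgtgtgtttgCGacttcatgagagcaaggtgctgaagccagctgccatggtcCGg
The Ddx4 stretch carries 3 measured CpGs in a row of gcctCG repeats, which stood at 73.3 to 77.5%. The Mael stretch holds 10 measured CpGs, whose 20 cytosines on both strands spanned 33.9 to 83.8%. In the Tdrd1 stretch, the second capital CG lies inside CACGTG, the E-box motif, and was the least methylated of all 128 CpGs at 16.6%.

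All 8 genes with data were partly methylated within 1 kb of a start in both groups. Piwil4 and Tdrd9 had CpGs only near an internal start, and Mov10l1 had 6 of its 14 near the 5′ end. Their levels are therefore not those of the promoter at the 5′ end. Mean levels over the 10 pools ran from 34.2% at Piwil4 to 69.3% at Asz1, and 117 of the 128 CpGs lay between 20 and 80%. Among all 22986 genes with a CpG near a start, 51.4% were below 10% and the median was 8.70%, so the 8 promoters ranked at percentiles 66.0 to 85.5. Of 6762 protein-coding genes with at least 5 CpGs and a CpG-dense window (observed over expected CpG of at least 0.6), 78.4% were below 10% and 6.09% were at 30 to 80%. Ddx4 and Mael met that density, with ratios of 0.635 and 0.606, and stood at 66.0% and 65.3%. Whether a promoter sits in the middle range was not tested against other genes, since the 8 were listed for their function.

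**Figure D1:**
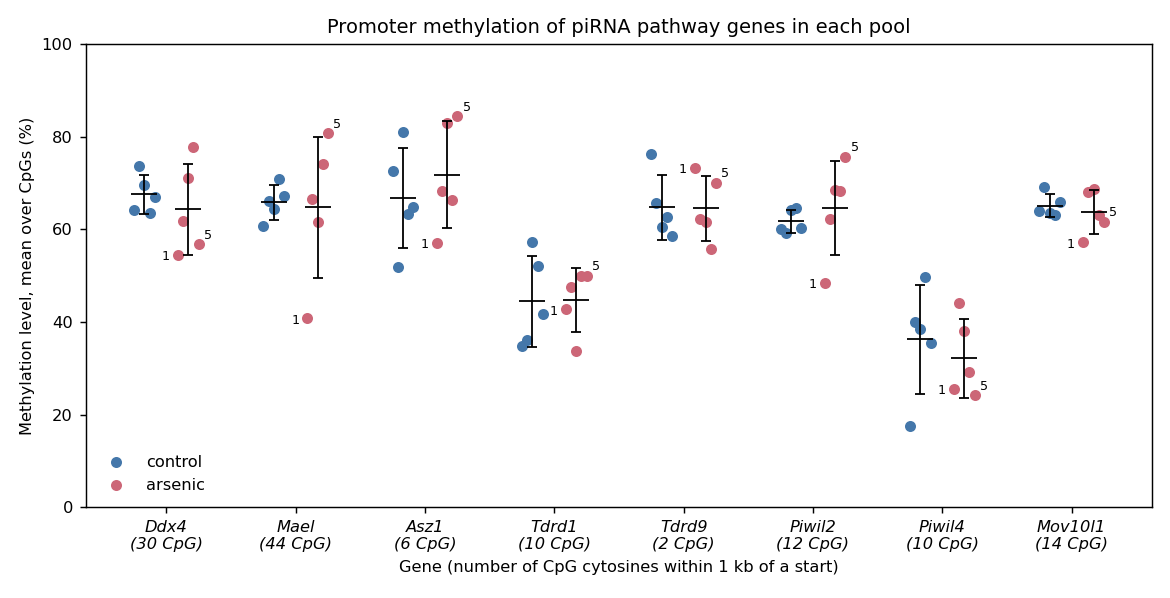
Promoter methylation level in percent (vertical axis, mean over the CpGs of a gene) for the 8 genes with data (horizontal axis), each point a pool, blue for control and red for arsenic, with black bars for the mean and SD of 5 pools and small digits marking arsenic pools 1 and 5. Control and arsenic points overlapped at every gene, and at Mael the arsenic pools ran from 40.8 to 80.7%.

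The first question was whether gestational arsenic shifted the methylation of these promoters. At none of them was the group difference larger than the spread between pools. By the exact permutation test over all 252 assignments of the pools (two-sided, smallest possible p = 0.00794), 0 of the 8 promoters had an unadjusted p below 0.05, against 6.21% of all 22986 promoters (3.45% lower and 2.76% higher in the arsenic group). After Benjamini-Hochberg adjustment over all of them, 0 of the 8 and 0.0% of all promoters passed, and limma, a moderated linear model fitted to log2 read ratios, also passed 0 of the 8 (0.0% of all promoters adjusted, 5.47% unadjusted). The groups overlapped at each of the 8 genes, whereas they did not overlap at 1.07% of all promoters. The arsenic mean was lower at 5 of the 8 and higher at 3, with a median difference of -0.65 percentage points, beside 0.0171 over all genes. Over all 22986 promoters it was lower at 11289 and higher at 11651.

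**Figure D2:**
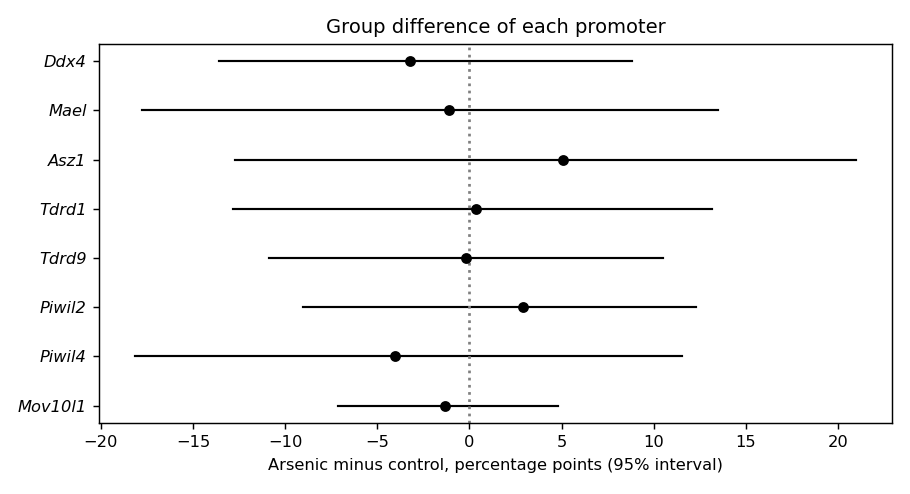
Difference of the group means in percentage points, arsenic minus control (horizontal axis), for each gene with data (vertical axis), where points are the differences and lines the 95% intervals from inverting the exact permutation test. Every interval crosses 0, the narrowest being that of Mov10l1 at -7.11 to 4.79 points and the widest that of Asz1 at -12.8 to 21 points.

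The PIWI proteins come first. Piwil2 encodes the cytoplasmic PIWI protein, and its 12 CpGs lay from 176 b upstream to 88 b downstream of the start of the gene on chromosome 14. Its level was 60.2, 59.2, 64.2, 64.6 and 60.3% in control pools 1 to 5, and 48.5, 62.2, 68.4, 68.3 and 75.7% in arsenic pools 1 to 5. Control pools were tightly grouped, whereas arsenic pool 1 was below and arsenic pools 3, 4 and 5 above all of them. Group means were 61.7% ± 2.53 and 64.6% ± 10.2 (SD, n = 5), a difference of 2.93 points with a 95% interval of -9.02 to 12.3 (exact permutation test, p = 0.571, adjusted p = 0.958). Without arsenic pool 1 the difference was 6.96 points and the unadjusted p was 0.0317 in the exact permutation test, with an adjusted p of 0.617. Without arsenic pool 5 it was 0.175 points (exact permutation test, p = 0.984). Within the window, the most methylated CpG, at 70.3%, was 163 b upstream and the least, at 47.8%, was 48 b downstream of the start, in an untranslated exon.

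Piwil4 encodes the nuclear PIWI protein. None of its 10 CpGs was near the 5′ end of the gene on chromosome 9, and all lay in an intron, 295 to 570 b past an internal start that also overlaps the antisense gene Gm10706. This intronic stretch was the least methylated of the 8, at 17.6, 40.0, 38.5, 49.6 and 35.4% in control pools 1 to 5 and 25.6, 44.1, 38.0, 29.1 and 24.2% in arsenic pools 1 to 5. Control pools 1 and 4 were the lowest and the highest of all 10, so the control group spanned the arsenic group. Means were 36.2% ± 11.7 and 32.2% ± 8.54 (SD, n = 5), with a difference of -4.03 points (95% interval -18.1 to 11.5, exact permutation test, p = 0.548). Its single CpGs ranged from 27.8% to 51.6%.

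Among the helicases, Ddx4 encodes the germ cell RNA helicase known as the vasa homolog. Its 30 CpGs formed a cluster from 28 b upstream to 72 b downstream of the start on chromosome 13, 24 of them in an untranslated exon. The Ddx4 promoter stood at 64.2, 73.7, 69.6, 63.5 and 66.9% in control pools 1 to 5, and at 54.4, 61.7, 71.1, 77.7 and 56.8% in arsenic pools 1 to 5. Arsenic pools 1, 2 and 5 were below every control pool and arsenic pool 4 above. With means of 67.6% ± 4.19 and 64.4% ± 9.83 (SD, n = 5), the difference was -3.22 points (95% interval -13.6 to 8.83, exact permutation test, p = 0.516). CpGs upstream of the start were the more methylated, up to 77.5% at 16 b upstream, and the lowest was 51.4% at 39 b downstream. A TCCCGC sequence, the core of sites for the E2F family, lies 30 b downstream of the start, and its CpG was methylated at 64.0% on the plus and 66.5% on the minus strand.

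Mov10l1 encodes the helicase that feeds piRNA precursors into processing. Its 14 CpGs on chromosome 15 fell into separate places of the gene, 6 in the first intron, 457 to 670 b past the nearer of the starts at the 5′ end, and 8 in a coding exon 759 to 861 b past an internal start. The intron stood at 38.3, 34.6, 29.5, 32.9 and 35.3% in control pools 1 to 5 and at 19.8, 39.3, 46.7, 30.6 and 30.6% in arsenic pools 1 to 5. In the coding exon every CpG was at 78.4% or more, up to 92.5%, in contrast to the intron, where the highest was 43.2% and the lowest 19.3%. Over both, levels were 64.0, 69.2, 63.4, 63.0 and 65.9% in the control and 57.2, 68.1, 68.8, 63.2 and 61.6% in the arsenic pools. The pools of both groups were interleaved, and this was the least variable of the 8 genes with a range of 11.95 points over all pools. Means were 65.1% ± 2.52 and 63.8% ± 4.80 (SD, n = 5), a difference of -1.31 points (95% interval -7.11 to 4.79, exact permutation test, p = 0.611). A gene mean that joins the intron and the exon therefore describes neither.

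Tudor domain genes held few measured CpGs. Tdrd1, a docking partner of PIWIL2, had 10 CpGs on chromosome 19, all upstream of the 5′ start, from 849 to 9 b before it. Levels were 34.9, 36.1, 57.2, 52.1 and 41.8% in control pools 1 to 5 and 42.7, 47.5, 33.7, 49.9 and 50.0% in arsenic pools 1 to 5. Control pool 3 was highest and arsenic pool 3 lowest, and the groups had means of 44.4% ± 9.86 and 44.8% ± 6.84 (SD, n = 5), which differed by 0.341 points (95% interval -12.8 to 13.2, exact permutation test, p = 0.968). Level varied along the promoter, from 16.6% at the E-box 487 b upstream to 59.2% at the CpG 164 b upstream. The E-box CpG stood at 16.2% ± 12.8 in the control and 16.9% ± 14.1 in the arsenic group (SD, n = 5). A second E-box, 9 b upstream of the start, held a CpG at 38.5%.

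Tdrd9, which encodes a Tudor domain helicase that partners PIWIL4, had 2 CpGs, both in an intron upstream of an internal start on chromosome 12 and none near its 5′ end. They averaged 76.3, 65.8, 60.5, 62.7 and 58.5% in control pools 1 to 5, and 73.3, 62.2, 61.5, 55.7 and 70.0% in arsenic pools 1 to 5. The first pool of each group was the highest of its group, and the means of 64.8% ± 6.98 and 64.5% ± 7.06 (SD, n = 5) lay 0.21 points apart (95% interval of the difference -10.9 to 10.5, exact permutation test, p = 0.976).

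Asz1 encodes a mitochondrial scaffold of the granules in which piRNAs are made. Its 6 CpGs on chromosome 6 began 1 b past the start and ran through the first coding exon, and they were uniform, from 64.8% to 72.1%. In control pools 1 to 5 the level was 72.7, 51.9, 81.0, 63.4 and 64.8%, and in arsenic pools 1 to 5 it was 57.1, 68.2, 82.8, 66.4 and 84.5%. Control pool 2 was lowest and arsenic pool 5 highest, with the other pools of both groups mixed between them. The means of 66.8% ± 10.9 and 71.8% ± 11.6 (SD, n = 5) differed by 5.05 points (95% interval -12.8 to 21, exact permutation test, p = 0.476).

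Mael encodes a component of the granules that hold PIWIL4 and its partners. It had the most CpGs, 44 within 307 b of the start on chromosome 1, of which 13 lay in an untranslated exon, 19 in the coding exon and 12 in the intron. Its level was 60.7, 66.2, 64.3, 70.8 and 67.2% in control pools 1 to 5 and 40.8, 66.5, 61.5, 74.1 and 80.7% in arsenic pools 1 to 5. Arsenic pool 1 was far below and arsenic pools 4 and 5 above all control pools. Group means were 65.8% ± 3.73 for control and 64.7% ± 15.2 for arsenic (SD, n = 5). The difference of -1.09 points had a 95% interval of -17.8 to 13.5 (exact permutation test, p = 0.905), and without arsenic pool 1 it was 4.89 points. Single CpGs reached from 33.9% on the plus strand, 246 b past the start, to 83.8% on the minus strand, 196 b past it.

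**Figure D3:**
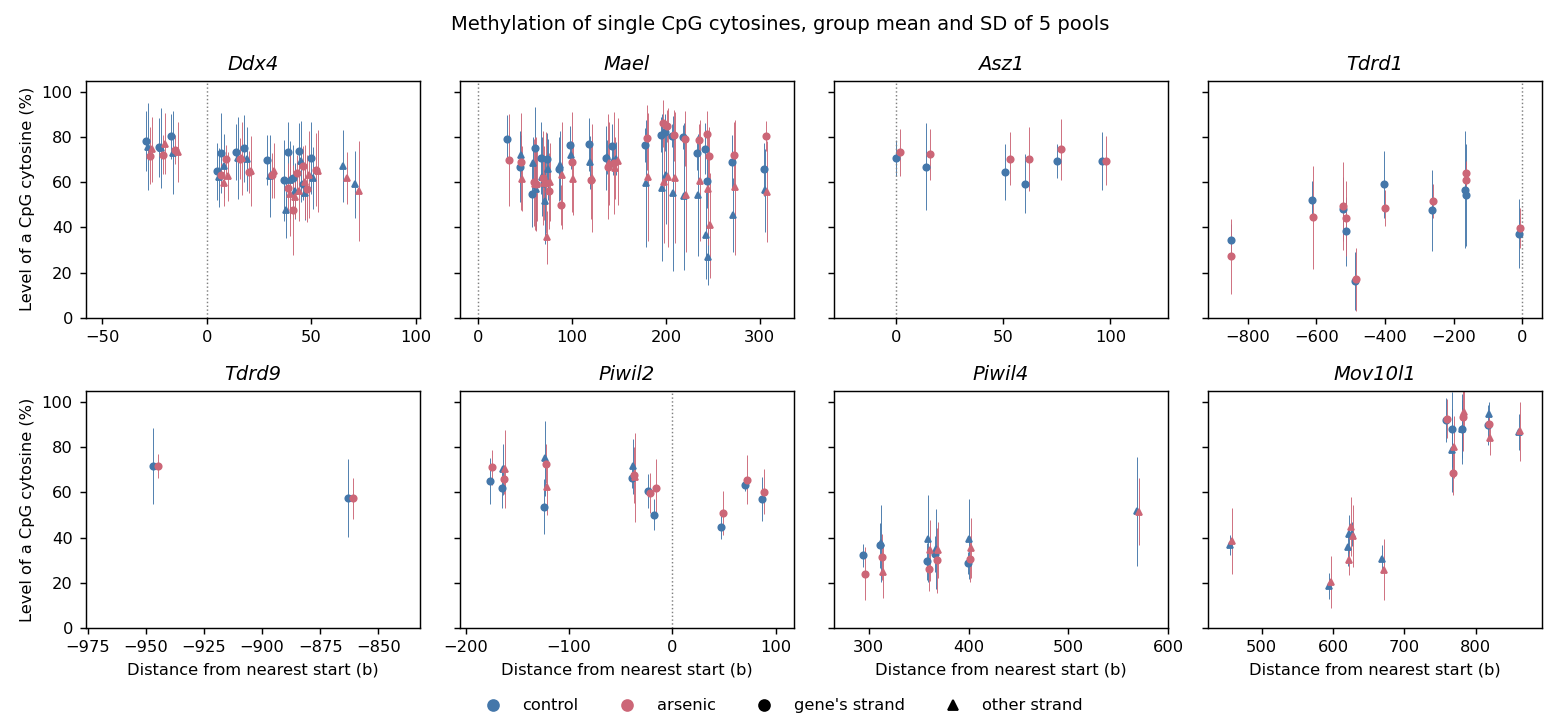
Level of each CpG cytosine in percent (vertical axis) against its distance in bases from the nearest annotated start, positive downstream (horizontal axis), for the 8 genes with data, blue for control and red for arsenic, circles for the strand of the gene and triangles for the other strand, with bars for the SD of 5 pools. Blue and red overlap at most positions, the Tdrd1 CpG 487 b upstream sits lowest at 16.6%, and the Mov10l1 CpGs form separate groups at 19.3 to 43.2% and at 78.4 to 92.5%.

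The strands of the same fragment could be read apart at Mael. RRBS reads each strand from its own end, and at CpGs at 20 to 80% over the whole table (123094 read on both strands) the strands of a pool differed by a median of 12.8 points, and by over 30 points in 13.6% of cases. At the 21 such CpGs of Mael the median was 14.1 points and 21.9% differed by over 30. In the fragment farther from the start, 179 to 307 b past it, the plus strand stood at 49.7, 21.8, 47.8, 56.1 and 79.4% in control pools 1 to 5 and at 26.7, 74.6, 31.0, 70.3 and 84.3% in arsenic pools 1 to 5. Its minus strand was at 66.9 to 87.7% in every pool, so control pool 2 carried 21.8% on one strand and 77.0% on the other. The nearer fragment did not show this split, since arsenic pool 1 was low on both of its strands (35.6 and 31.6%) and arsenic pool 5 high on both (80.4 and 76.7%). At Ddx4 the strands of the control pools ran in nearly opposite order, with the plus strand at 69.2, 84.6, 67.1, 49.5 and 53.2% and the minus strand at 58.5, 61.2, 72.4, 79.4 and 82.7%. In the arsenic pools they ran in nearly the same order, with the plus strand at 49.7, 61.7, 74.8, 78.1 and 54.6% and the minus strand at 59.8, 61.7, 66.9, 77.3 and 59.4%. At the 14 CpGs of Ddx4 read on both strands, the median difference was 12.7 points and 14.3% differed by over 30. Both values were close to those of the whole table. The order of the strands was not tested between the groups of 5 pools. Compared by fragment and strand between the groups, the smallest p in the exact permutation test was 0.103, unadjusted, at the minus strand of the upstream Piwil2 fragment, where the arsenic mean was 9.68 points higher.

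**Figure D4:**
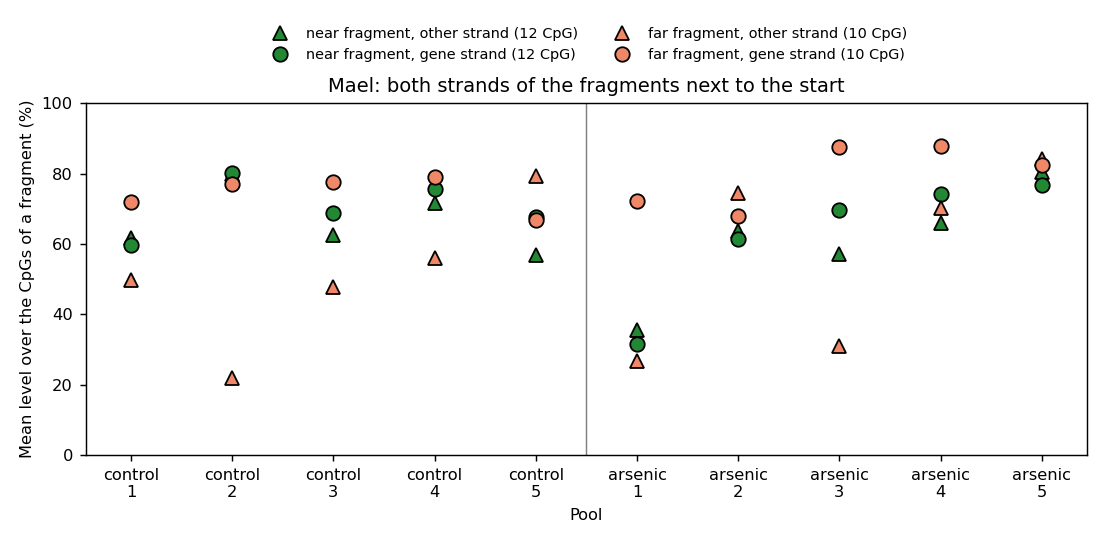
Mean level in percent (vertical axis) over the CpGs of 1 strand of a Mael fragment in each of the 10 pools (horizontal axis), green for the fragment nearer the start and orange for the farther one, circles for the strand of the gene and triangles for the other strand. In the farther fragment triangles run from 21.8 to 84.3% while circles stay between 66.9 and 87.7%.

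At single CpGs, calls followed the rule of the study for differentially methylated cytosines (DMCs), a logistic regression on reads with a q up to 0.01 and groups 10 points or more apart. By that rule 2 of the 128 CpGs were lower in the arsenic group, where 1.48% of all CpGs were lower, and 2 were higher, where 0.784% of all CpGs were higher. Among all CpGs at 20 to 80%, the range of most piRNA pathway CpGs, these shares were 2.66% and 1.59%. The rule takes reads as independent, and over the 128 CpGs the variance between pools was a median of 2.58 times that of read sampling (2.33 times for all CpGs at 20 to 80%). Limma per CpG, which uses the spread between pools, passed 0 of the 128 after adjustment and 5 at an unadjusted p below 0.05, beside 0.0% and 6.0% of all CpGs. An F test with an overdispersion factor also passed 0, with a smallest q of 0.799, and the groups overlapped at all 128 CpGs, against 0.693% of all CpGs at which they did not.

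The lower DMC of Ddx4, 40 b past the start at position 112652435 (minus strand), was read at 56.5, 66.7, 77.8, 75.0 and 91.7% in control pools 1 to 5 and at 21.7, 44.8, 61.1, 73.3 and 37.8% in arsenic pools 1 to 5. Arsenic pools 1, 2 and 5 were below every control pool and the other arsenic pools among them (limma adjusted p = 0.830). It was the only DMC among the 30 Ddx4 CpGs. The same CpG on the plus strand was not called, at 61.1% ± 17.5 for control and 53.6% ± 9.52 for arsenic pools (SD, n = 5). At Mov10l1 the lower DMC was at position 89021188 (plus strand) of the internal coding exon, with 66.7, 100, 100, 73.3 and 100% in the control pools and 70.0, 82.9, 55.6, 69.8 and 65.5% in the arsenic pools, on 15 to 43 reads. Control pools 2, 3 and 5 had no unmethylated read there.

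The higher DMC of Piwil2 was 123 b upstream of the start at position 70429506 (minus strand), inside the stretch printed above, and had 60 to 127 reads per pool. It stood at 69.4, 38.3, 53.5, 45.9 and 61.4% in control pools 1 to 5 and at 60.9, 66.0, 78.7, 78.9 and 79.7% in arsenic pools 1 to 5, and arsenic pools 3, 4 and 5 were above every control pool (limma adjusted p = 0.830). Its partner on the plus strand was not called, at 75.1% ± 16.5 for control and 62.3% ± 12.2 for arsenic pools (SD, n = 5). At Mael the higher DMC was in the intron at position 166238500 (plus strand), in the fragment whose strands differed, at 33.3, 8.0, 50.0, 57.9 and 33.3% in the control and 28.0, 68.6, 33.3, 73.0 and 83.3% in the arsenic pools. Both groups were widely spread there, and arsenic pools 2, 4 and 5 exceeded all control pools.

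The pools were then compared over the genes together. Arsenic pool 1 was the lowest pool at 4 of the 8 genes (Ddx4, Mael, Piwil2 and Mov10l1) and the highest at none, and arsenic pool 5 was the highest at 3 (Mael, Asz1 and Piwil2). The mean over the 8 genes was 56.3, 57.8, 62.3, 61.2 and 57.6% in control pools 1 to 5 and 50.0, 60.1, 60.7, 60.6 and 62.9% in arsenic pools 1 to 5. Arsenic pool 1 was below, and arsenic pool 5 above, all other pools. Both pools were also the extremes over all CpGs of the table, at 42.1% and 47.3%, so the order is not particular to these genes. In list means they held the same extremes for the maternal imprint genes and for the genes of germ cells. The 5 germ cell promoters with a CpG averaged 42.3% in arsenic pool 1 and 51.4% in arsenic pool 5. By gene, arsenic pool 1 was the lowest pool at 1 of these 5 and arsenic pool 5 the highest at 2. At the 9 maternal imprint genes these counts were 5 and 5. In the germ cell list control pool 2, at 42.8%, and control pool 1, at 51.0%, came close to them. The part of other cells in these shared extremes was not tested.

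**Figure D5:**
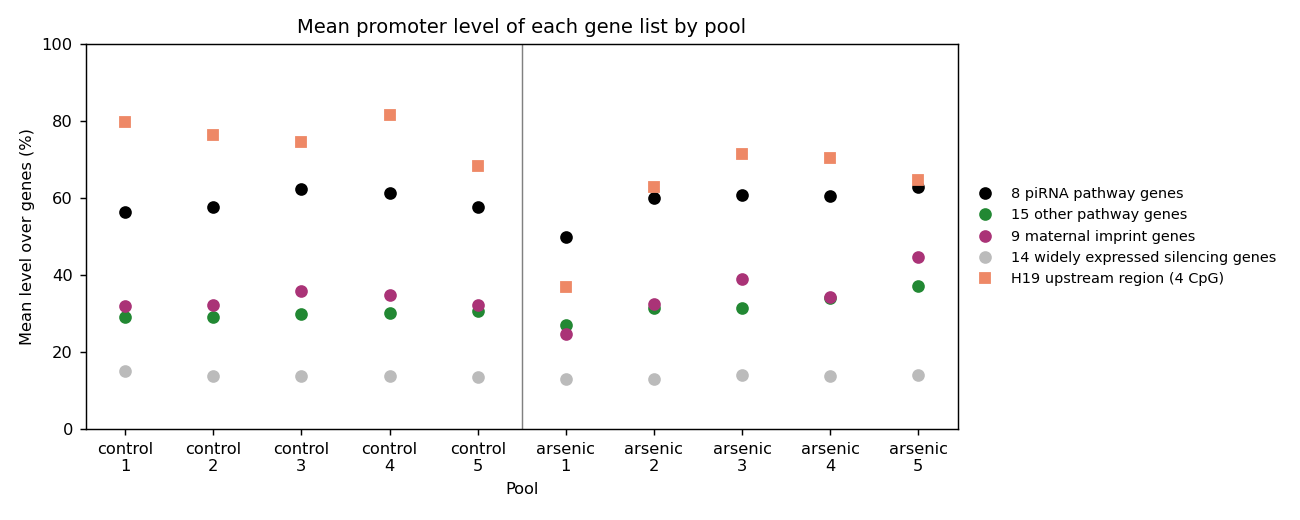
Mean level in percent (vertical axis) over the genes of a list in each of the 10 pools (horizontal axis), black for the 8 piRNA pathway genes, green for 15 other pathway genes, purple for 9 maternal imprint genes, grey for 14 widely expressed silencing genes and orange squares for the region upstream of H19. Arsenic pool 1 is lowest for black (50.0%), green (27.1%), purple (24.9%) and orange (36.8%), while grey stays within a narrow band, 13.0% at its lowest. Of the 14 grey genes 9 are below 10%, so the grey mean has little room to fall.

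By the likeness of their levels over the 10 pools to the mean of the 8 genes, the closest of 5352 other promoters (at least 5 CpGs, 20 to 80%) were Krt81, Gm47103, Gm11478, Gm42760 and Tnks1bp1, with Pearson's r of 0.945, 0.936, 0.924, 0.923 and 0.916. The median r over all 5352 was 0.347. These are descriptions over 10 pools that share the low arsenic pool 1.

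Of 23 other genes of the pathway, 15 had a CpG near a start. Their levels were split, with 7 at 20 to 80% and 6 below 10%, and a median of 25.6%. The most methylated were Wdr77, a partner of the arginine methyltransferase PRMT5, at 91.0%, the piRNA trimmer Pnldc1 at 73.6%, the cochaperone Fkbp6 at 67.6%, Dnmt3l, the cofactor of germ line DNA methylation, at 57.4%, the Tudor protein gene Rnf17 at 53.9% and the piRNA methylase Henmt1 at 45.7%. At the other end were Prmt5 at 0.563%, Mybl1, the transcription factor of later piRNA genes, at 0.744%, Tdrd5 at 1.02% and Exd1 at 1.43%. Thus, levels near the starts of pathway genes were not alike. Neighbours in the same complex, Prmt5 (13 CpGs) and Wdr77 (8 CpGs), lay at opposite ends. Whether the CpGs of these other genes lay near the 5′ end or only near an internal start was not examined, so the levels may not compare like places.

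Fkbp6 varied as Mael did, with 40.0% in arsenic pool 1, 85.3% in arsenic pool 5 and 54.9 to 76.0% in the other 8 pools. Of the 15 genes, 12 had a higher and 3 a lower mean in the arsenic group, with a median difference of 0.976 points. Over all 22986 promoters, 11651 were higher and 11289 lower, with a median of 0.0171 points. The 15 genes were read in the same 10 pools, so their directions are not independent. By the exact permutation test 1 of them had an unadjusted p below 0.05, the chaperone gene Hsp90aa1 (named after its value was seen), which was higher in the arsenic group, where 2.76% of all promoters were. Its means were 0.474% ± 0.485 and 2.40% ± 3.01 (SD, n = 5, exact permutation test, p = 0.0476, adjusted p = 0.767), and arsenic pool 1 alone was at 7.73%. No CpG was measured near a start of Piwil1, Tdrd12, Tdrkh, Gtsf1, Dnmt3c, Morc1, Spocd1 or Tex19.2. Of 15 widely expressed silencing genes listed, the symbol Tasor was not matched in the annotation and was not analysed. The other 14 had a CpG, with a median of 2.71% and 9 below 10%. In the exact permutation test 1 was lower and 1 higher at an unadjusted p below 0.05, where 3.45% and 2.76% of all promoters were, with 0 after adjustment.

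Finally, promoter sequences were searched for the motifs noted above on both strands, in the RefSeq windows from 250 b before to 50 b after a start. Of the 10 genes 9 had an entry, with 13 promoters. The E-box CACGTG was present in 7 of the 13, belonging to Ddx4, Mael, Mov10l1, Pld6, Tdrd1 and Tdrd9, and in 7.15% of all 32851 promoters. TCCCGC was present in 3 of the 13 (Ddx4, Mael and Tex19.1) and in 19.98% of all promoters. Matches are letters only, and factor binding was not measured.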

How the data were processed

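DNA methylation was measured by RRBS in 5 control and 5 arsenic pools of prospermatogonia, grouped by their titles. The deposited table holds raw counts, namely all reads, methylated reads and unmethylated reads per CpG cytosine and pool. Per the labels and the methods, the authors made these counts from reads trimmed with Trim Galore 0.6.5, mapped to mm10 with Bismark 0.22.3 and united with methylKit 1.22.0, strands apart. The treatment of PCR duplicates and overlapping mates and the restriction enzyme were not given in the sources used here, and the authors left out a further arsenic pool for low depth. Of 1349101 entries, 1348062 were used (autosomes, X and Y), with a coverage of at least 10 and 99.99% of them at a CpG of the assembly. The assembly is of another strain, so a CpG lost or gained in C3H/HeN could not be seen.

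Levels were averaged over CpGs, without weights. Groups were compared by exact permutation tests (two-sided), with intervals by inversion at 95% and Benjamini-Hochberg adjustment over all 22986 promoters. DMCs were called by a likelihood ratio test per CpG, and limma 3.58.1 was fitted to log2 ratios with 1 read added to each count. P-values of the permutation tests and of limma measure the spread between pools, whereas those behind the DMC calls measure read sampling only. The members, lists and tests were chosen with earlier results of these data known. All 10 genes are named, with the most and least methylated of the other pathway genes, and for each gene its extreme CpGs and DMC. R 4.3.3 and Python 3.11.15 were used, the latter with pandas 2.3.3, scipy 1.17.1, matplotlib 3.10.9 and numpy 2.4.6.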

Additional observations from a re-analysis of the deposited data

Results flagged for a closer look

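In groups of 5 pools, a pool is named here when its gap to the nearest other pool is a large part of the whole range of the group (Dixon's test), which chance does in about 1 of 20 groups. Of 56 groups tested, 2 stood out, where 2.8 would be expected. On the minus strand of the internal coding exon of Mov10l1, control pool 2 was at 98.1%, and the nearest control pool at 87.4%. In the region upstream of H19, arsenic pool 1 was at 36.8%, and the nearest arsenic pool at 62.8%. The same pool was the lowest at Ddx4, Mael, Piwil2 and Mov10l1, but its promoter levels there were not far enough from the next pool to stand out by this test.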

How the results depend on the processing

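Over 82 promoter values under other settings and 80 with a pool left out, no promoter had an adjusted p below 0.05 (smallest 0.617). The difference turned in 7 of the 82 and 14 of the 80. For Mael it was 0.0427 points when weighted by coverage, 0.408 with strands merged and 0.0608 on limma's log2 scale. Tdrd1 gave -1.38 points weighted by coverage and -0.0809 in limma, Mov10l1 1.88 within 500 b, and Tdrd9 0.728 within 2 kb. With a pool left out, Mael ran from -5.08 (without arsenic pool 5) to 4.89 (without arsenic pool 1), Mov10l1 from -2.57 to 0.331, Tdrd1 from -2.04 to 3.55 and Tdrd9 from -2.39 to 2.67 points, and with no change of sign Asz1 ran from 1.34 to 8.73, Ddx4 from -6.56 to -0.736, Piwil2 from 0.175 to 6.96 and Piwil4 from -8.68 to -0.674. The causes were not tested. DMCs, 2 lower and 2 higher, fell to 0 and 0 with overdispersion, with limma and with limma plus a replicate block, to 0 and 1 at a coverage of at least 20, and to 1 and 1 with strands merged or from 1 kb upstream to 100 b downstream. Asking for 20 points left 1 higher. With a pool left out they ran from 1 to 3 lower and from 1 to 6 higher, the 6 without arsenic pool 1. Nothing in the labels ties pools of the same number to a shared batch, and correlations of pools with the same number were -0.0552 to 0.0572. For promoters the replicate block, 1 of the settings among the 82 values, could not call any, since its smallest possible p was 0.0625. It is therefore no check of the promoter calls. Some settings left no CpG, namely 1 kb to 100 b (Piwil4, Mov10l1), 1 start (Tdrd9, Piwil4), 500 b (Tdrd9), coverage 20 (Tdrd1, Mov10l1) and coverage 30 (all but Piwil2). Depth of 10 to 127 reads limits single CpGs.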
